A study of Danio rerio with 4 samples.

Results

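The contacts described here are all primer pairs of a 5C experiment with both primers in a stretch of 30 kb of zebrafish (Danio rerio) chromosome 3, chr3:55962001-55992000 in build danRer7. A pair belongs to the set if the midpoints of both its primers lie in this stretch; no read count enters that rule, but the stretch itself was chosen with earlier results of these data known. The stretch holds 17 of the 77 forward and 19 of the 87 reverse primers of the experiment, and these 36 primers form 323 of its 6699 pairs (4.82%). At the low edge the first primer inside, R211 (chr3:55962070-55962099), lies 0.084 kb past the limit, and F210 (chr3:55961917-55961946) is the nearest primer left out. At the high edge R262 (chr3:55991676-55991705) is the last primer inside. Neighbouring primers in the stretch lay a median of 487 bp apart, with a largest gap of 3365 bp.

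In 5C, DNA ends that lie near each other in fixed nuclei are ligated after the chromatin has been cut. Forward and reverse primers that meet at such a junction are ligated to each other, amplified and sequenced, and a read therefore reports 1 forward and 1 reverse primer. Red blood cells of fish keep their nucleus, so circulating cells still hold chromatin. The region assayed is the major alpha/beta-globin domain, where genes for the oxygen carriers of embryos and larvae lie near those of adults. Zebrafish replace the first set of globins by the second as they grow, and in mammals and birds a globin gene is typically in contact with distant enhancers while it is expressed.

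Blood cells came from adult fish (2 libraries) and from larvae at 18 days post fertilisation (2 libraries), both collected after an overdose of tricaine and fixed with 2% formaldehyde for 10 min. No strain, allele, transgene or further treatment is named for either stage, and the sources used here do not give the number of fish behind a library. The files hold contact counts and no expression, so the labelled cell type could not be set against marker genes. Whole blood cells were used, so a change in the mix of cells and a change within 1 cell type cannot be told apart. Gene positions in danRer7 were not used here, so primers are named by kind and number (F221, R222) and by coordinates. The labels describe 2 biological replicates, and whether they came from separate 3C templates is not stated, so a p-value here reflects no more than the spread among 4 libraries, which may be technical.

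The libraries held 65450 and 38494 counts in adults and 20801 and 6539 in larvae. Inside the stretch the counts were 3490 and 1945 in adults and 1771 and 554 in larvae. Where a pair has no read, as many as 3 counts remain possible. In CPM, the count scaled to a common library total, that limit is 45.8 and 77.9 in the adult libraries and 144 and 459 in the larvae libraries. Absence of a pair is thus measured less sharply in larvae, above all in larvae 2. Such limits, like the intervals below, describe counting error alone: the reads are PCR products that carry no molecular identifier.

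A pair of features of the counts has to be known before the contacts are read. First, pairs that swap partners between closely spaced primers often carried identical counts. The stretch holds 8 couples of a forward and a reverse primer less than 200 bp apart, such as F221 and R222 (151 bp) or F259 and R260 (141 bp). F221-R260 and F259-R222 both had 117 and 66 counts in the adult libraries and 29 and 9 in the larvae libraries. F232-R260 and F259-R231 likewise shared 30 and 16 counts in adults and 36 and 11 in larvae. Of 12 such swaps with at least 6 reads in the stretch 10 were identical in all 4 libraries, and over the whole region 76 of 87 were, against 1 of 2249 where a couple lay 200 to 700 bp apart. For F228, which has a mate on each side (R227 at 130 bp and R229 at 104 bp), 3 of 4 testable pairs equalled the sum of both swapped pairs. A further couple, F210 and R211, straddles the low edge. F228-R211, inside the stretch, had 14 counts over all libraries, as many as F210-R227 and F210-R229 together, which reach outside it. Pairs of such a set are not independent of each other. Counting each set once removed 34 of the 323 pairs, and values that change with it are given below.

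Second, 3 pairs with very high counts, F165-R224, F165-R236 and F217-R164, join a primer of the stretch to one below its low edge. They are not members, but they took 15.2% and 18.5% of all counts in adults and 24.8% and 34.5% in larvae, and so lower the share left for all other pairs, more in larvae than in adults. With partners inside the stretch the same primers had few counts, but in both adult libraries several other primers of the stretch, such as R211 and F242, had fewer. R224 had 76 and 44 counts in adults and 28 and 10 in larvae, R236 had 76 and 52 against 19 and 12, and F217 had 79 and 63 against 18 and 18. R224 and R236 had near-equal counts with F165 (3265 and 3313 in adult 1, 769 and 771 in larvae 2), and pairs with either primer are treated as uncertain in position. F217-R164 had counts of similar size (3362 in adult 1 and 715 in larvae 2), but pairs with F217 were not treated in this way.

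The first comparison asked how much of all contact lay inside the stretch at each stage. Contacts inside it took a larger share of the counts in larvae than in adults. The share was 5.33% in adult 1 (95% exact Clopper-Pearson interval 5.16 to 5.51%) and 5.05% in adult 2 (4.84 to 5.28%). It was 8.51% in larvae 1 (8.14 to 8.90%) and 8.47% in larvae 2 (7.81 to 9.17%). Both larvae libraries lay above both adult libraries, with means of 8.49% ± 0.030 and 5.19% ± 0.20 (SD, n = 2 each). The exact two-sided permutation test gave p = 0.333, the smallest that 2 libraries against 2 allow. Per pair this was 263 CPM in larvae and 161 CPM in adults, set against 149 CPM for an average pair of the whole region.

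The adjoining stretch on the low side, chr3:55943001-55962000, had the opposite order. Its 272 pairs took 30.4% and 29.2% of the counts in adults and 14.6% and 14.1% in larvae. The log2 ratio of counts inside the 30 kb to counts inside the adjoining stretch was -2.51 and -2.53 in adults and -0.78 and -0.73 in larvae. This ratio does not depend on the rest of the library, and its stage means differed by 1.77 on the log2 scale while the SDs were 0.014 and 0.029 (exact permutation p = 0.333, the smallest possible). Leaving out the 3 dominant pairs changed the share to 6.24% ± 0.064 in adults and 12.1% ± 1.14 in larvae, a larger difference in the same direction.

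**Figure D1:**
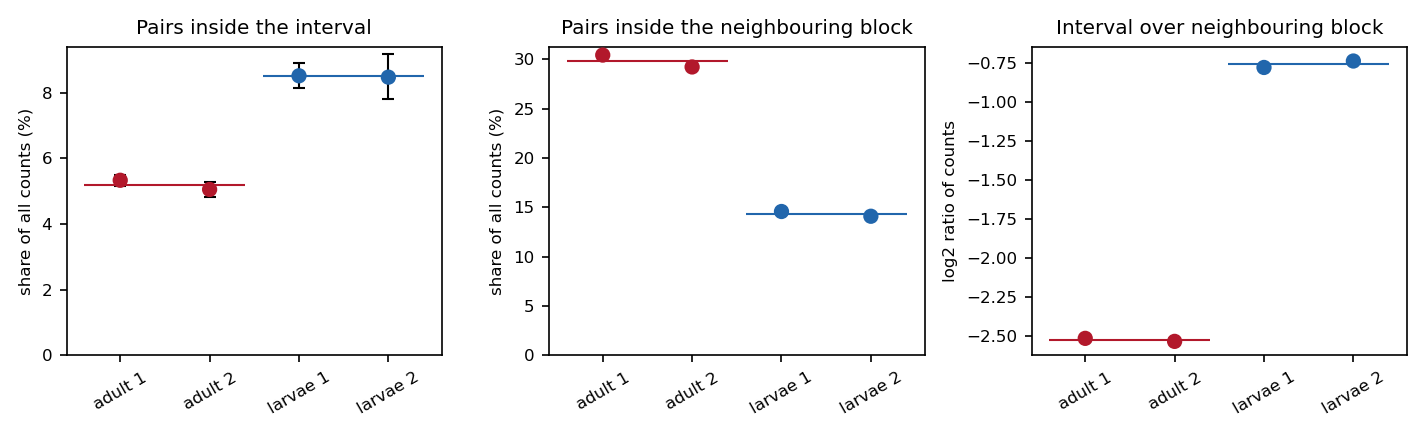
Share of all counts of a library in pairs inside chr3:55962001-55992000 (left, %, with 95% exact binomial intervals), in pairs inside the adjoining low-side stretch (middle, %), and log2 ratio of the former to the latter (right). Points are the 4 libraries and lines are stage means. The larvae libraries lie above the adult ones at left (8.51% and 8.47% against 5.33% and 5.05%) and below them in the middle.

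The larval excess was concentrated at short range. Pairs less than 1 kb apart averaged 1331 and 1100 CPM in the larvae libraries and 538 and 414 CPM in the adult libraries. The ratio between stage means was 2.56. Most larval counts of this class came from F221-R222, F225-R227, F228-R227 and F228-R229, described below, and the ratio was not computed without them. At 1 to 2 kb the ratio was 2.28, and at 2 to 4 kb the means were 376 CPM in larvae and 250.3 CPM in adults. From 4 to 8 kb the stages were close, with 196 CPM in larvae and 188 CPM in adults. At 8 to 16 kb larvae again had more (134 ± 13.4 against 93.1 ± 8.25 CPM, SD), and at 16 to 30 kb they did not (75.9 ± 10.3 against 80.7 ± 2.58 CPM). The adjoining stretch was higher in adults in all 6 distance classes, from 2432 against 1109 CPM below 1 kb to 300 against 105 CPM above 16 kb.

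Among the counts of pairs at least 5 kb apart, the share inside the stretch was 3.30% in adults and 3.98% in larvae. This total is not that of the whole library, and it still holds the 3 dominant pairs. At that range the log2 ratio to the adjoining stretch, adult minus larvae, differed by -1.46, beside -1.77 over all distances. The slope of log2 mean CPM on log2 distance over the 6 classes was -0.42 and -0.39 in the adult libraries and -0.71 and -0.62 in the larvae libraries, steeper in both larvae libraries. Fitted over single pairs above 0 the stage means were -0.29 and -0.31, which differed by less than the spread between libraries.

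The second comparison asked which pairs make up the contact map at each stage. The maps of the stages shared a common core but differed in many single pairs. Of the 323 pairs 145 and 142 had reads in the adult libraries (44.9% and 44.0%) and 133 and 112 in the larvae libraries (41.2% and 34.7%), while 116 had none in any library. Over all pairs of the region 29.9% and 28.3% had reads in the adult libraries and 15.6% and 13.1% in the larvae libraries. The adult libraries shared 139 detected pairs, which is 95.9% of the list of adult 1 and 97.9% of that of adult 2. The larvae libraries shared 104, 78.2% and 92.9% of their lists. Across stages 67 to 77 pairs were shared, 47.2% to 54.2% of the adult and 57.1% to 61.6% of the larvae lists.

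In all, 82 pairs were seen in both stages, 66 in adults alone and 59 in larvae alone. Of these, 62 had reads in both adult libraries and in neither larvae library, and 38 had reads in both larvae libraries and in neither adult library. As a description over the 323 pairs, Pearson's r of log2(CPM + 10) was 0.96 between the adult libraries, 0.81 between the larvae libraries and 0.40 to 0.41 across stages. The libraries share primers and distances, and larvae 2 is the shallowest of the 4. Shared pairs, pairs of 1 stage alone and r were not computed over all pairs of the region, so they are not read as a trait of the stretch.

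**Figure D2:**
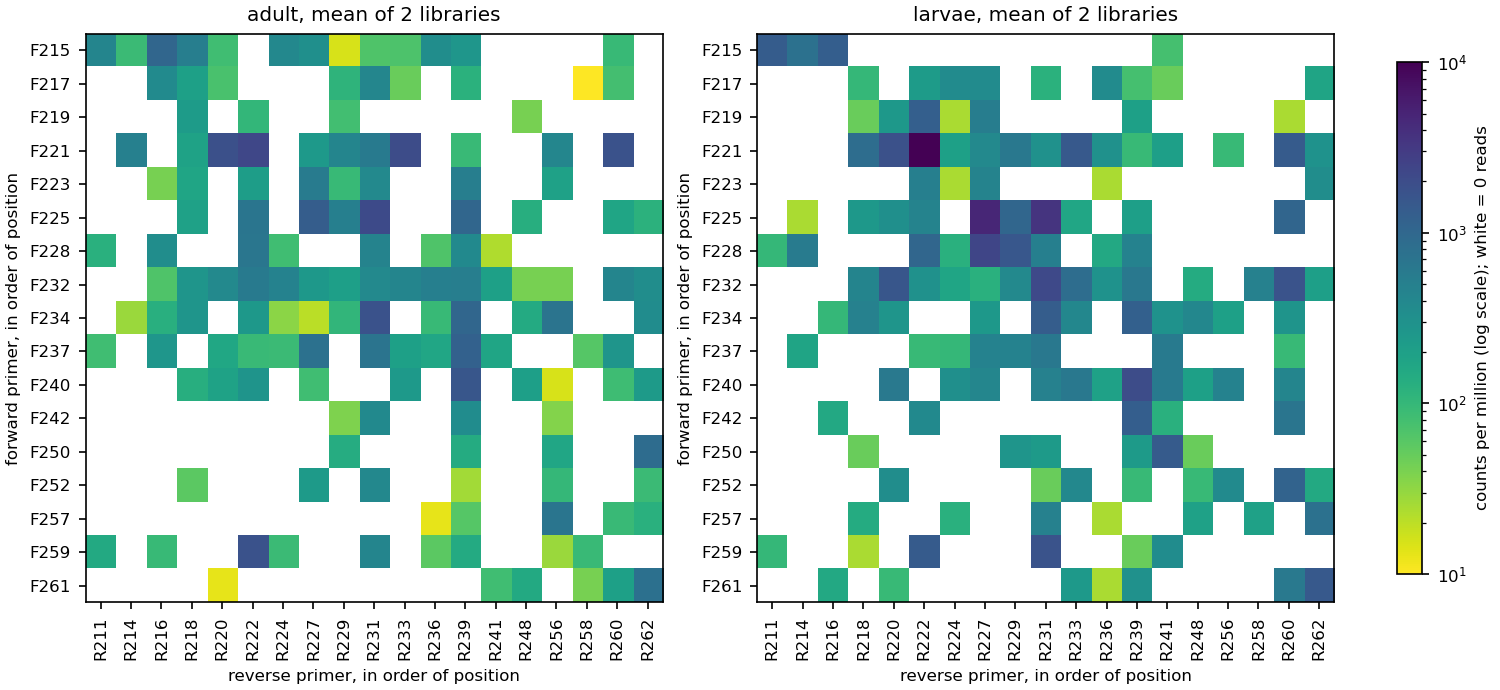
Mean CPM of each of the 323 pairs in adults (left) and larvae (right), with forward primers as rows and reverse primers as columns in order of position, on a log colour scale; white marks pairs with 0 reads. The darkest cell in larvae is F221-R222, and the block of dark cells around F225 and F228 with R227 to R231 stands out more in larvae than in adults.

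The 6 pairs of highest mean CPM in each stage had 2 in common, F221-R222 and F225-R231. F221 (chr3:55973364-55973393) took part in 4 of the 6 in adults and in 1 of the 6 in larvae, where F225 took part in 2. F221-R222 ranked first in both stages, with 202 and 60 counts in adults (3086 and 1559 CPM) and 282 and 42 in larvae (13557 and 6423 CPM). It was higher in larvae (log2 change, adult minus larvae, -1.94 ± 0.41 SE, edgeR adjusted p = 1.14e-05). Its primers are one of the close couples, 151 bp apart. The larvae libraries themselves differed widely in this pair, and without adult 2 it did not pass (adjusted p = 0.171, edgeR).

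For the other leading adult contacts of F221 no difference between stages passed the test, although both adult libraries lay above both larvae libraries in 2 of them, F221-R233 and F221-R260. F221-R233, over 6.44 kb, had 126 and 80 counts in adults (1925 and 2078 CPM) and 31 and 9 in larvae (1490 and 1376 CPM). F221-R220, over 0.739 kb, had 1986 and 1767 CPM in adults and 1779 and 1835 CPM in larvae. F221-R260, the longest of the leading contacts at 17.5 kb, had 1788 and 1715 CPM in adults and 1394 and 1376 CPM in larvae. None of these 3 passed the test (log2 changes 0.65 ± 0.53, 0.25 ± 0.51 and 0.52 ± 0.55 SE). The counts of F221-R260 are also those of F259-R222, so its 17.5 kb contact can be read at either couple of ends. F234-R231 (log2 change 0.81 ± 0.59) and F240-R239 (-0.17 ± 0.51) were among the leading pairs of adults and of larvae, respectively, and did not pass; without larvae 2, F234-R231 passed as higher in adults (1.61, edgeR adjusted p = 0.0186).

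F225 (chr3:55975248-55975277) is the primer shared by the second and the third of the leading pairs in larvae. F225-R227, over 0.271 kb, had 69 and 60 counts in adults (1054 and 1559 CPM) and 78 and 38 in larvae (3750 and 5811 CPM), with no overlap between stages. It was higher in larvae (log2 change -1.65 ± 0.46 SE, edgeR adjusted p = 0.000671), but did not pass without adult 1 or without adult 2. F225-R231, over 2.72 kb, had 131 and 86 counts in adults (2002 and 2234 CPM) and 33 and 36 in larvae (1586 and 5505 CPM). The larvae libraries lay on either side of the adult ones, and the pair did not pass (log2 change -0.42 ± 0.47 SE).

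F225 also anchored the single pair with reads in both stages that was higher in adults. F225-R239, over 8.71 kb, had 70 and 38 counts in adults (1070 and 987 CPM) and 2 and 2 in larvae (96.1 and 306 CPM), a log2 change of 2.87 ± 0.95 SE (edgeR adjusted p = 0.00422). The longer contact F225-R260, over 15.6 kb, went the other way, with 9 and 8 counts in adults (138 and 208 CPM) and 21 and 7 in larvae (1010 and 1071 CPM; log2 change -2.41 ± 0.77 SE, edgeR adjusted p = 0.00314). Neither pair passed without adult 1, adult 2 or larvae 1.

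The test across pairs covered 54 of the 323 members, those with enough counts for edgeR's filter, and pairs seen in 1 stage alone passed the filter through that stage. Of the 54, 8 were higher in adults, where 46.1% of all 679 tested pairs of the region were, and 18 were higher in larvae, where 24% of all tested pairs were. Taking both directions together, 26 of 54 differed, against 70.1% of all tested pairs. The median log2 change of the 54 was -0.18, against 1.08 over all tested pairs. That median over all tested pairs moved to 0.97 with library totals and to 1.12 with DESeq2. It was 0.42 over all tested bin pairs and 0.08 over all tested primer totals, so it depends on the features tested. Each call is against a log2 change of 0, and which level is the right one was not tested. Adult and larvae libraries did not overlap in 39 of the 54, against 82.8% of all tested pairs. Leaving out 1 library left 2 to 18 pairs higher in adults and 4 to 23 higher in larvae, with the lowest counts without adult 2 or larvae 1 and the highest without larvae 2.

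Of the 18 larvae-higher pairs 11 were less than 5 kb apart, a share like that of all tested members (34 of 54). Among those with reads in both stages, F219-R222, over 1.86 kb, had 5 and 5 counts in adults (76.4 and 130 CPM) and 32 and 6 in larvae (1538 and 918 CPM; log2 change -3.49 ± 0.83 SE, edgeR adjusted p = 9.16e-05). F232-R231, a close couple 148 bp apart, had 16 and 20 counts in adults (244 and 520 CPM) and 40 and 16 in larvae (1923 and 2447 CPM; log2 change -2.33 ± 0.68 SE, edgeR adjusted p = 0.00107). F257-R262, over 2.35 kb near the high edge, had 6 and 6 counts against 22 and 3 (log2 change -2.64 ± 0.73 SE, edgeR adjusted p = 0.000592). In all 3 pairs both larvae libraries lay above both adult libraries, and none of the 3 passed without adult 1 or without adult 2.

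Several pairs were read in 1 stage alone. Of the 18 larvae-higher pairs 6 had no read in either adult library, although these are the deeper libraries. F228-R227 and F228-R229, which join F228 (chr3:55975649-55975678) to its mates on both sides, had 64 and 11 and 41 and 7 counts in larvae and 0 in adults. At the mean larval CPM they would have had 156 and 91.6 counts, and 99.5 and 58.5 counts, in the adult libraries. Their mean larval CPM was 82.4-fold and 52.7-fold the adult limit, where a stage at 0 is set to 3 counts over the summed total of its libraries. Such a ratio allows for counting error in the stage at 0 alone. The error and spread of the stage with reads are not included, so it is not a lower bound of the difference. F250-R241 over 1.87 kb (35 and 7 counts in larvae), F252-R260 over 2.89 kb (30 and 5) and F242-R260 over 5.31 kb (19 and 3) had ratios of 47.7-fold, 38.2-fold and 23.8-fold. The last of them did not pass without adult 2. Without larvae 1 none of these larvae-only pairs had enough counts to be tested.

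Of the 8 adult-higher pairs 7 had no read in either larvae library. F237-R239, another close couple at 184 bp, had 93 and 35 counts in adults, which corresponds to 24.2 and 7.62 counts at larval depth. Its mean adult CPM was 10.6-fold the larval limit, set in the same way. F250-R262 over 4.50 kb (67 and 28 counts in adults), F257-R256 over 0.279 kb (42 and 28), F223-R239 over 9.98 kb (43 and 15) and F215-R218 over 4.00 kb (39 and 17) had ratios of 7.98-fold, 6.24-fold, 4.77-fold and 4.73-fold. For the last of these the counts expected in the larvae libraries were 10.8 and 3.39, so larval depth limits these ratios. Pairs read in 1 stage alone entered the test through that stage, so their p-values are not given as support. Without adult 2 or without larvae 1, F257-R256, F223-R239 and F215-R218 did not pass. Without adult 1, F223-R239 and F215-R218 had too few counts to be tested.

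**Figure D3:**
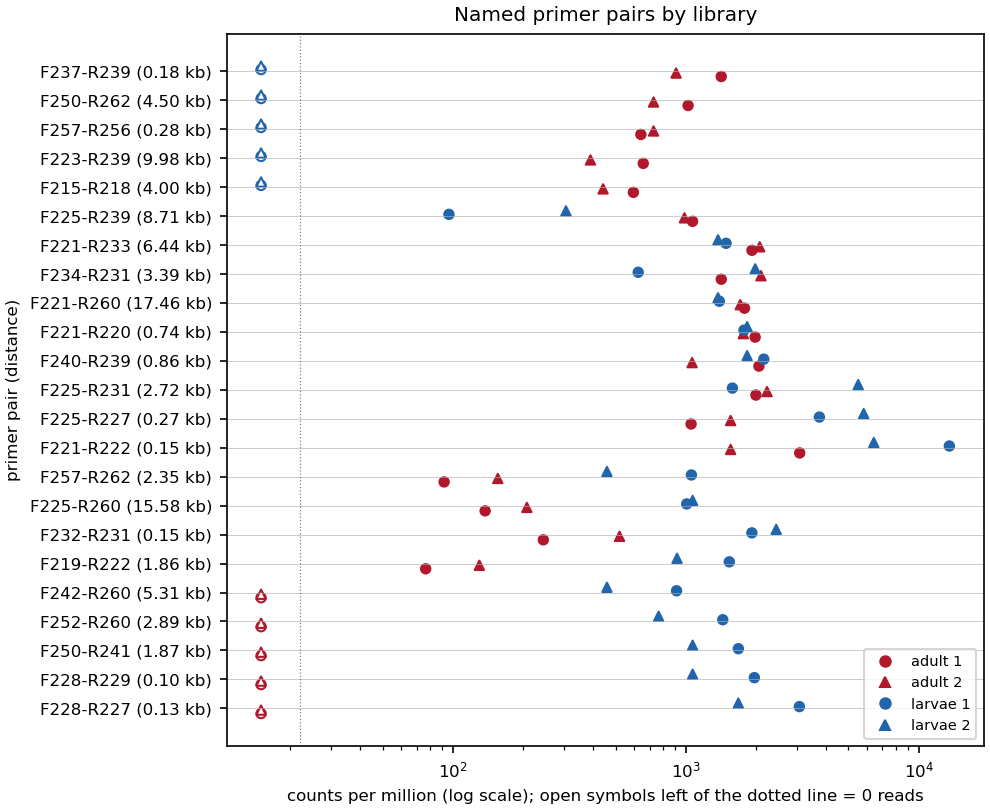
CPM of the named pairs in the 4 libraries on a log scale, with the distance between primers in brackets; open symbols left of the dotted line are 0 reads. Pairs are ordered from those read in adults alone (top) through those near equal, such as F221-R220, to those read in larvae alone (bottom).

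The third comparison placed these differences along the stretch by summing pairs over 6 bins of 5 kb, counted from the low edge. Of 21 bin pairs 18 could be tested. The contacts within the third bin (chr3:55972001-55977000), which holds the couple F221 and R222 and the primers F225 to R229, were the largest group. They had 621 and 328 counts in adults and 589 and 150 in larvae. That is 17.8% and 16.9% of the counts in the stretch in adults and 33.3% and 27.1% in larvae. Most of these larval counts were those of F221-R222, F225-R227, F228-R227 and F228-R229, described above, and the bin was not tested without them. This bin was higher in larvae (log2 change -1.40 ± 0.24 SE, edgeR adjusted p = 6.07e-08). It did not pass without adult 2 (adjusted p = 0.186, edgeR, log2 change -1.32).

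Contacts of the third bin with its lower neighbour, the second bin, were also higher in larvae, with 54 and 25 counts in adults and 47 and 26 in larvae (log2 change -1.90 ± 0.53 SE). So were those of the fifth with the sixth bin (74 and 63 against 122 and 20 counts, -1.65 ± 0.39 SE) and of the fourth with the sixth (175 and 105 against 102 and 46, -0.99 ± 0.34 SE). With pairs at least 5 kb apart the first 2 of these were -0.65 and -1.05 and did not pass, and with shared counts taken once the last was -0.56 and did not pass (adjusted p = 0.205, edgeR). Without adult 1 or adult 2 none of these 3 passed.

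Contacts of the third bin with the fourth, the fifth and the sixth bins were near 0 in log2 change (-0.06 ± 0.28, -0.02 ± 0.34 and -0.05 ± 0.32 SE). Set against a log2 change of 0, the larval excess of the third bin was thus measured within it and toward the second bin. It was not measured in its contacts toward the high side. The median over all tested bin pairs of the region was 0.42, and set against that level the contacts toward the high side also lay on the larval side. The difference between these groups was not tested.

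In the first bin 2 of 6 bin pairs passed, both higher in adults. Its contacts with the second bin had 46 and 28 counts in adults and 1 and 1 in larvae (703 and 727 CPM against 48.1 and 153 CPM). They were higher in adults by 3.30 ± 1.00 SE on the log2 scale (edgeR adjusted p = 0.00287). Most of these adult counts were those of F215-R218, described above as read in adults alone, so this call is not a result apart from that pair. Contacts of the first bin with the fourth, 52 and 33 against 6 and 1 counts, were higher in adults by 1.83 ± 0.78 SE (edgeR adjusted p = 0.0417). Both calls were lost with DESeq2 (adjusted p = 0.0905 and 0.216) and without adult 1, adult 2 or larvae 1. The second was also lost without larvae 2, with library totals, without a filter, with the replicate block, at 5 kb or more and with shared counts taken once (adjusted p = 0.0558 to 0.0985, edgeR). At 5 kb or more, and with all libraries thinned to the lowest total, 0 bin pairs of the stretch were adult-higher, so neither call was made there. Contacts within the first bin lay the other way, with 2353 and 1455 CPM in adults and 3173 and 3517 CPM in larvae, and did not pass (log2 change -0.67 ± 0.41 SE). Those with the third, the fifth and the sixth bins did not pass either (0.53 ± 0.50, 0.74 ± 0.69 and 0.62 ± 0.81 SE). No difference between bins was tested. In all, 2 bin pairs were higher in adults, where 28.8% of the 274 tested bin pairs of the region were, and 4 were higher in larvae, where 19% were. The larvae-higher count was 3 without the 3 dominant pairs, with the replicate block or with shared counts taken once. It was 2 with all libraries thinned to the lowest total and 1 at 5 kb or more. With library totals, with DESeq2, without a filter or without R224 and R236 it was 4. The median log2 change of the 18 was -0.23, against 0.42 over all.

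**Figure D4:**
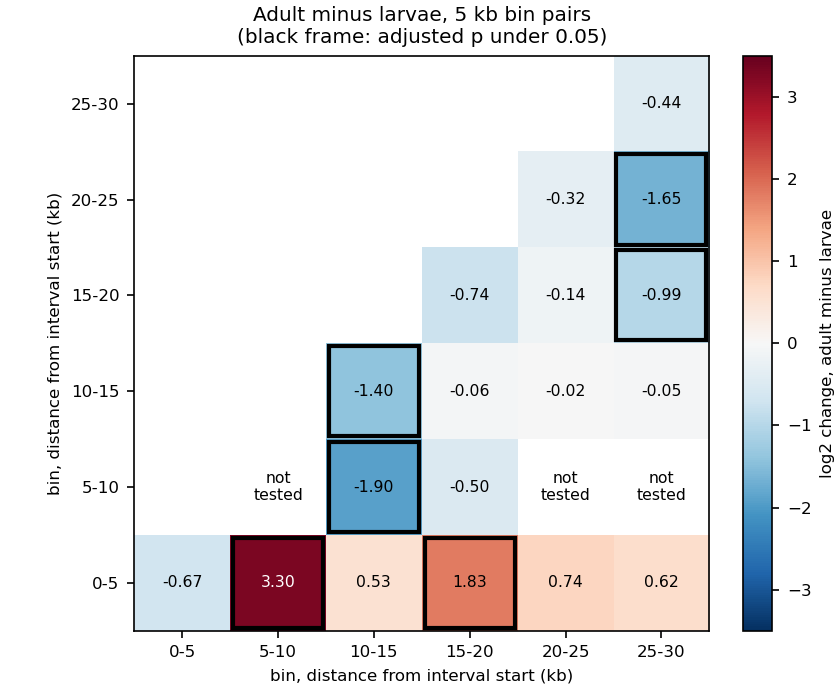
Log2 change, adult minus larvae, of counts summed over pairs of 5 kb bins, with bins given by distance from the low edge in kb; red is higher in adults, blue higher in larvae, and black frames mark adjusted p under 0.05. The frames lie at 0-5 with 5-10 kb (3.30) and 15-20 kb (1.83) in red, and at 10-15 kb with itself (-1.40) and 3 other bin pairs in blue.

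The last comparison asked whether single primers of the stretch changed in the same way with partners inside it and with partners outside it. Each pair inside the stretch counts toward the inside totals of both its primers, so the inside totals of different primers are not independent. With inside partners 16 of the 36 primers were higher in larvae and 0 in adults (edgeR; 18 and 2 at an unadjusted p under 0.05, and 13 and 0 with DESeq2). Over the 300 primer totals tested in the region, split into partners inside and outside the stretch, 24.3% were higher in larvae and 28% in adults. The median log2 change of the 36 was -0.86, against 0.08 over all. With outside partners 7 of the 36 primers were higher in adults and 7 in larvae, with a median of -0.01. These counts were 2 and 6 with DESeq2, and 7 and 4 with a median of 0.19 without the 3 dominant pairs. Without adult 1 or adult 2 the larvae-higher count with inside partners was 6 or 3. With partners at least 5 kb away it was 7 of 32, beside 3 higher in adults.

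R241 (chr3:55985302-55985331) showed the clearest change with inside partners, with 28 and 20 counts in adults and 72 and 25 in larvae (log2 change -2.93 ± 0.50 SE, edgeR adjusted p = 1.09e-07). F228 had 150 and 77 against 167 and 37 counts (-1.69 ± 0.30 SE), and R227 had 248 and 147 against 190 and 73 (-1.39 ± 0.25 SE). R222 carried the most inside counts of the named primers, with means of 6946 CPM in adults and 15592 CPM in larvae (-1.18 ± 0.23 SE). R260 near the high edge had 206 and 124 against 182 and 39 (-1.24 ± 0.27 SE), and F219 had 34 and 15 against 48 and 15 (-2.30 ± 0.55 SE). In CPM both larvae libraries lay above both adult libraries for all 6. Pairs read in larvae alone are part of the totals of R241 (F250-R241), F228 (F228-R227 and F228-R229), R227 (F228-R227) and R260 (F252-R260 and F242-R260). F221-R222 gave most larval inside counts of R222. Those totals are thus not results apart from these pairs, and they were not tested without them. With partners at least 5 kb away R241, F228 and R227 did not pass, and R222 was at 0.10. Without adult 2, R222, R260 and F219 did not pass.

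A further test, added after the data had been seen, set the inside change of each primer against its own outside change in 1 edgeR fit with library as a term. A factor common to all pairs of a primer in a library cancels in this difference. In 10 of the 36 primers the inside change was lower in adults than the outside change, and in 0 it was higher (13 and 1 at an unadjusted p under 0.05; no other tool was run). Over the 161 primers of the region 23.6% were lower and 15.5% higher, and the median difference of the 36 was -0.48 against -0.21 over all. The 10 were R211, F223, F225, R227, F228, R229, F240, R241, R258 and F261. Inside pairs enter the totals of both their primers here too, so the 10 are not independent results. Counts shared through the couple F210 and R211 can enter both inside and outside totals. Pairs read in larvae alone, such as F228-R227, F228-R229 and F250-R241, are part of these totals as well.

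The share of 10 in 36 is near that over all primers, so it is not read as a trait of the stretch. For every primer inside means this stretch, and all primers include the 36, so no other stretch was compared with it. The place of the 10 along it was not tested. F225, R227, F228 and R229 lie within chr3:55975248-55975782, and all 4 kept more of their counts inside the stretch in larvae; F228 shares counts with R227 and R229. R227 had 45.9% and 43.9% of its counts with inside partners in adults and 80.9% and 75.3% in larvae, a difference of -2.17 ± 0.44 SE on the log2 scale (edgeR adjusted p = 0.000288). For F225 the shares were 49.7% and 57.5% in adults and 86.1% and 74.1% in larvae (-1.87 ± 0.47 SE). F225, R227 and F261 were higher in larvae with inside partners and higher in adults with outside partners. For F225 the outside values overlapped, with 5730 and 5066 CPM in adults and 1346 and 5353 CPM in larvae. F261 (chr3:55991124-55991153), at the high edge, had inside shares of 14.4% and 13.9% in adults and 36.0% and 40.9% in larvae.

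For F223 and R258 the difference lay in outside contacts that were nearly missing in larvae. F223 had 199 and 115 outside counts in adults and 8 and 0 in larvae, while its inside counts of 157 and 77 against 31 and 8 did not pass. R258 had 40 and 19 outside counts in adults and 1 and 0 in larvae, so its value rests on few reads. R241 went from inside shares of 23.9% and 32.3% in adults to 81.8% and 73.5% in larvae. The count of 10 primers was 8 with shared counts taken once, 3 without adult 1, 1 without adult 2 and 4 with partners at least 5 kb away, where 4 others had the opposite direction.

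**Figure D5:**
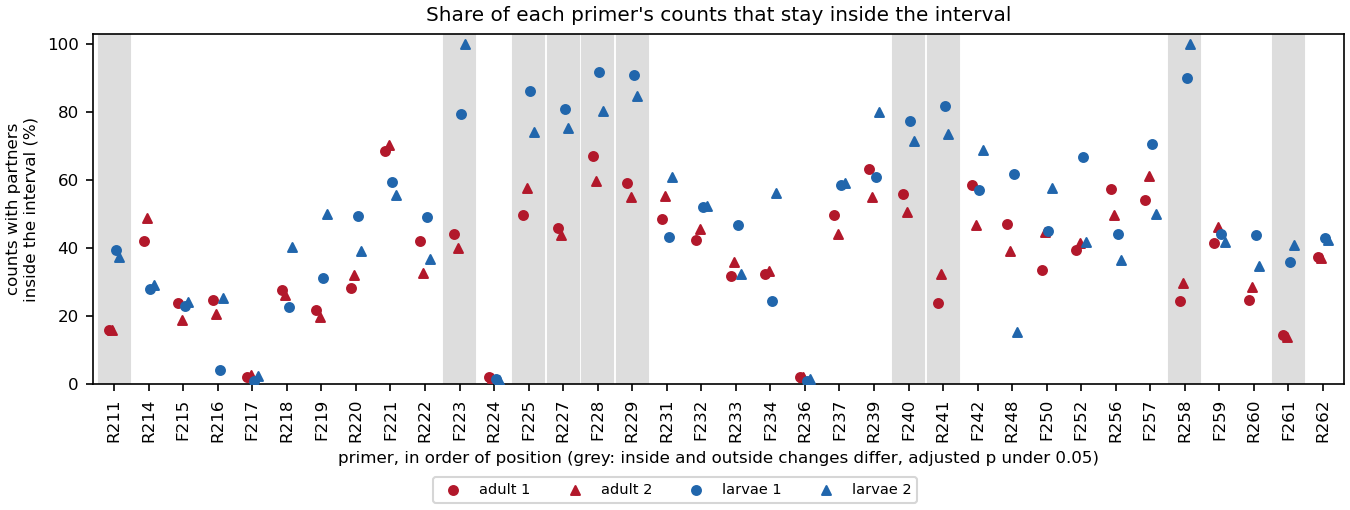
Share of each primer's counts (%) that joined it to partners inside the stretch, for the 36 primers in order of position and the 4 libraries. Grey bands mark the 10 primers whose inside and outside changes differed; in each of them both larvae libraries lie above both adult libraries, as for R227 (80.9% and 75.3% against 45.9% and 43.9%).

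With the 3 dominant pairs left out, inside and high-side contacts of the stretch took larger shares in larvae, and low-side contacts a smaller one. The dominant pairs are themselves low-side contacts of the stretch. They took 24.8% and 34.5% of all counts in larvae and 15.2% and 18.5% in adults. The shares below are those of the remaining contacts, and shares with the dominant pairs kept are not given. Leaving out the 3 dominant pairs, 25.3% ± 0.36 of all counts that touched the stretch joined 2 of its own primers in adults and 34.3% ± 0.88 did in larvae (SD, n = 2 each). Contacts toward the low side made up 56.4% ± 0.94 in adults and 39.2% ± 0.86 in larvae, and contacts toward the high side 18.3% ± 1.30 and 26.4% ± 0.018. In each of the 3 shares both larvae libraries lay on 1 side of both adult libraries; the shares sum to the whole and are not independent (exact permutation p = 0.333 for each, the smallest possible).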

How the data were processed

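The deposited values are raw counts of reads, 1 matrix per library with forward primers in rows and reverse primers in columns. Build danRer7, Bowtie2 2.2.2 and bcl2fastq 1.8.4 are named per the submitters' processing notes. Primer coordinates are those of the file headers. Restriction enzyme, read filters and the assignment of reads to pairs were not given in the sources used here. Per the labels' protocols, 350 ng of 3C library and 1150 ng of salmon testis carrier DNA were annealed with the primers, 28 PCR cycles followed, and products of 100 bp were sequenced with 101 bp single-end reads.

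CPM was computed from each library's total. Pairs, sums over 5 kb bin pairs, and primer totals split into partners inside and outside the stretch were each tested over the whole region with the quasi-likelihood test of edgeR 4.0.16 in R 4.3.3, with TMM factors, filterByExpr at its defaults, stage as the only term and Benjamini-Hochberg adjustment over everything tested (threshold 0.05). Only rows of the stretch are reported. Standard errors were derived from the quasi-likelihood F. Single values per library were compared by exact permutation, which cannot go below p = 0.333. The procedures were tested on simulated data. DESeq2 1.42.0 was an alternative.

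Named pairs were the 6 with the highest mean CPM in each stage. Up to 6 with reads in both stages and the smallest adjusted p in each direction were added. So were up to 5 read in 1 stage alone with the largest ratio to the limit of the other stage in each direction. Named primers were up to 6 by adjusted p with inside partners in each direction. Primers and bin pairs singled out beyond this were chosen after their values were seen. The stretch and these lists were chosen with earlier results of these data known. Alternatives were library totals, no filter, thinning to the lowest total, leaving out the 3 dominant pairs, pairs under 5 kb, R224 and R236 or each library, other bin sizes and edges, and a replicate block. Counting shared pairs once, and the test of inside against outside partners, were added after seeing the data. No gene was placed and no primer sequence was used here.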

Additional observations from a re-analysis of the deposited data

How the results depend on the processing

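Depth limits what can be called absent in larvae: 3 counts are 459 CPM in larvae 2. Counts of calls below are given as adult-higher and larvae-higher, beside 8 and 18 for pairs, 2 and 4 for bin pairs, 0 and 16 for primers with inside partners, 7 and 7 with outside partners, and 0 and 10 for inside against outside change. All alternatives used edgeR unless DESeq2 is named, and where a count moved the cause was not tested unless the setting leaves fewer features or libraries.

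Without a filter 37 and 50 pairs were called. Thinning left 10 pairs and gave 0 and 4; for bin pairs it gave 0 and 2, for outside partners 2 adult-higher, and for inside against outside 4 larvae-higher. With pairs at least 5 kb apart there were 4 and 7 pairs, 0 and 1 bin pairs, 3 and 7 primers with inside partners, 4 adult-higher primers with outside partners, and 4 and 4 for inside against outside. DESeq2 called 0 adult-higher bin pairs (1 at an unadjusted p under 0.05, as against 2 with edgeR) and 2 adult-higher primers with outside partners. Adult-higher bin pairs numbered 1 with library totals, without a filter, with the replicate block or with shared pairs counted once. Bins of 3 kb gave 7 larvae-higher bin pairs, and bins of 10 kb gave 0 and 2. Without the dominant pairs, or without R224 and R236, 4 primers were larvae-higher with outside partners. Without R224 and R236, or with shared pairs counted once, 1 primer was adult-higher with inside partners.

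Leaving out 1 library each gave 2 to 18 and 4 to 23 pairs, 0 to 2 and 0 to 6 bin pairs, 0 to 1 and 3 to 18 primers with inside partners, 1 to 8 and 2 to 8 with outside partners, and 0 to 1 and 1 to 13 for inside against outside. Without adult 2 no bin pair passed (0 and 1 at an unadjusted p under 0.05). Of the 17 named pairs that passed, 17 also passed under all alternatives that kept every library and in which they could be tested. Those read in 1 stage alone entered the test through that stage, so their passing is not given as support. Each of the others, with reads in both stages, fell short of the threshold when at least 1 of the libraries was left out.

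The difference of the share, adult minus larvae, was -3.30 percentage points. It became -5.89 without the dominant pairs, -4.76 without R224 and R236, and -4.08 or -2.63 with edges 2 kb wider or narrower. At 5 kb or more it was -0.68, as a share of the counts at that range alone. The log2 ratio to the adjoining stretch (-1.77) became -1.46 at 5 kb or more and -1.82 with shared pairs counted once. The difference in slope (0.25) was 0.017 over single pairs. Leaving out 1 library each gave -3.44 to -3.16, -1.79 to -1.75 and 0.21 to 0.30.

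Log2 changes that turned were those of F221-R220 when thinned (-0.98), F225-R231 without larvae 2 (0.54; down to -1.22 when another library was left out), F234-R231 without larvae 1 (-0.027; up to 1.61, past the threshold with adjusted p = 0.0186, edgeR, without larvae 2), F240-R239 without a filter (0.28), without the dominant pairs (0.24) and without adult 2 (0.40; down to -0.57 when another library was left out), and R222 with inside partners at 5 kb or more (0.10); none of the turned values passed. The replicate numbers showed no pairing: deviations of same-numbered libraries correlated at 0.0059 over all pairs and 0.20 over those of the stretch. Under a replicate block 9 and 16 pairs, 1 and 3 bin pairs, 0 and 15 primers with inside partners and 5 and 7 with outside partners were called.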
